A study of Mus musculus with 8 samples.

Results

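The 10 genes described here are ligands and receptors of cytokine signalling in cultures of mouse embryonic stem cells (ESCs): the cytokine gene Il6, the chemokine genes Cxcl1, Cxcl5, Cxcl12, Ccl2, Ccl7 and Ccl28, and the receptor genes Il1r1, Il4ra and Il1rl1. They were named as a list, 10 of the 20278 genes in the files, with earlier results of these data known, so the list is not independent of them. RNA of N33 ESCs, a line labelled as C57BL/6 and derived from C57BL/6J mice by the study's methods, was sequenced in 4 culture conditions with 2 samples each. The question followed was how the inhibitor pair 2i changes these genes when ESCs share the dish with feeder cells.

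In the condition G, ESCs grew in serum on gelatin, without feeders. In F they grew in serum on feeders, which are mouse embryonic fibroblasts stopped from dividing with mitomycin C. F2i was F with 2i added, and NB2i was the defined medium N2B27 with 2i on poly-L-ornithine and laminin, with neither serum nor feeders. 2i joins CHIR99021, an inhibitor of the kinase Gsk3, and PD0325901, an inhibitor of the kinase Mek. The labels give their doses for N2B27 (3 µM and 1 µM) and not for F2i. LIF at 1000 U/ml was in the serum medium and in N2B27, and the serum medium held 20% fetal bovine serum. All samples came from 1 cell line. The samples of a condition are described as biological duplicates. By the protocol given with each sample, ESCs were parted from feeders in 2 rounds by how they stick to the dish, a step that the methods of the study name for PCR and not for sequencing.

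Chemokines are small secreted proteins that draw cells along a gradient by binding G protein-coupled receptors. Fibroblasts make IL-6, CCL2, CCL7 and CXCL1 when stimulated by IL-1, TNF or injury, and CXCL12 is a product of resting stromal cells that keeps stem cells of the bone marrow in their niche. IL-1 and IL-33 act through paired receptors whose ligand-binding chains are the products of Il1r1 and Il1rl1, and the product of Il4ra binds IL-4 and serves in the receptors of both IL-4 and IL-13.

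Total expected counts, the estimates of reads per gene summed over genes, lay between 20129641 and 20664488 per sample, and no library stood apart by depth. Fibroblast markers were present where the labels put feeders. The summed FPKM (reads per kilobase of transcript, scaled to the depth of the sample) of 16 fibroblast markers was 245 and 257 in the F samples and 632 and 622 in the F2i samples, against 24.5 and 23.6 in G and 8.50 and 8.11 in NB2i. No marker was at 0 in F or F2i. Dcn and Postn, a matrix proteoglycan and a matrix protein of fibroblasts, were both at 0 in NB2i. The ESC markers summed to between 4253 and 4658 FPKM in the 8 samples. Of all tested genes, 7.0% were called lower and 6.44% higher in F2i against F. Of 10 genes known to answer to 2i, 4 were called lower and 3 higher there. The 4 with the largest changes, Spry4 (-4.92 on the log2 scale), Egr1 (-4.57), Etv4 (-3.18) and Dusp6 (-2.66), all answer to Erk. Not every Erk target of the list moved so far: Spry2 was at -0.006 and Etv5 at -0.21. In these bulk samples, fewer feeder cells and less RNA per feeder cell cannot be told apart.

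With 2i on feeders, Cxcl12 and Il1rl1 were lower, and the other tested genes gave no detected change. Cxcl12 had a log2 fold change of -1.46 in F2i against F (SE 0.126, 95% interval -1.72 to -1.20, edgeR adjusted p = 2.35e-09). Il1rl1 had one of -0.82 (SE 0.183, 95% interval -1.20 to -0.44, edgeR adjusted p = 0.000682). A gene was called where its adjusted p in edgeR's quasi-likelihood test was under 0.05 and its change was at least 2-fold. Cxcl12 was thus called lower and Il1rl1 was not. The test takes counts, which do not allow for transcript length. By mean FPKM, Il1rl1 was at 1.56 in F and 0.755 in F2i, just over 2-fold lower. Of the 9 genes with enough reads to be tested, 0 were called higher and 1 lower, while 6.44% of all 15287 tested genes were called higher and 7.0% lower in this comparison. With no limit on the fold, 2 of the 9 were past an adjusted p of 0.05, as were 54.8% of all tested genes. Their median log2 fold change was -0.28, against -0.003 over all tested genes. The plot of FPKM by sample shows each of the 10 genes in the 4 conditions.

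**Figure D1:**
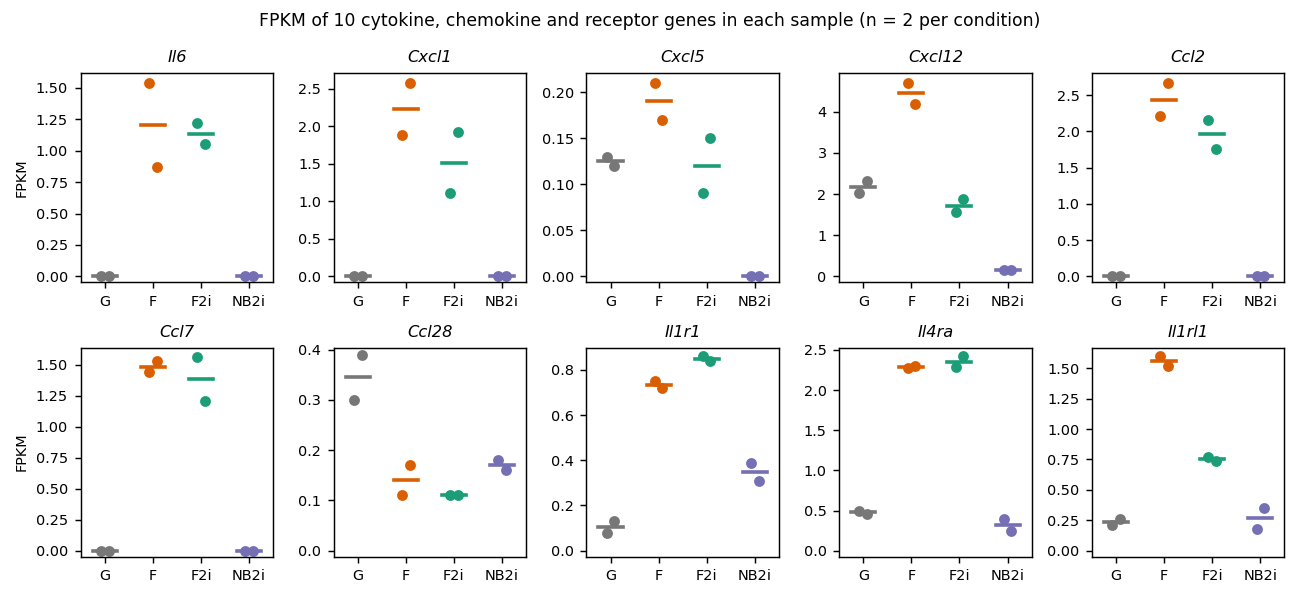
FPKM of each of the 10 genes (vertical axis, linear, own scale for each gene) in the conditions G, F, F2i and NB2i (horizontal axis). Points are the 2 samples of a condition and lines are their means. Il6, Cxcl1, Ccl2 and Ccl7 were at 0 in every G and NB2i sample, and Cxcl12 was between 4.20 and 4.71 in F and between 1.56 and 1.87 in F2i.

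Il6 lies on chromosome 5 (mm10, chr5:30013114-30019975) and encodes IL-6, a cytokine of inflammation that signals through gp130. It was read at 1.54 and 0.87 FPKM in the F samples, from 35 and 20 reads, and at 1.22 and 1.05 FPKM in the F2i samples, from 27 and 24 reads. The 2 conditions overlapped, and the log2 fold change of -0.06 had a 95% interval of -0.76 to 0.64 (edgeR adjusted p = 0.897). A change of 2-fold in either direction lies outside that interval. No G or NB2i sample had a read of Il6. With 3 reads over both samples as the floor for a group without reads, Il6 was at least 18.4-fold higher in F than in G, at least 17.2-fold higher in F2i than in G, and at least 17.3-fold lower in NB2i than in F2i.

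Cxcl1 (chr5:90891245-90893121) encodes a chemokine that draws neutrophils through CXCR2. Its FPKM was 1.88 and 2.58 in F and 1.11 and 1.92 in F2i, from 36, 50, 21 and 37 reads in that order. The highest F2i sample lay above the lowest F sample. The log2 fold change was -0.52 (95% interval -1.15 to 0.12, edgeR adjusted p = 0.158), an interval that still holds a 2-fold decrease. G and NB2i had no reads of Cxcl1, which put it at least 28.7-fold higher in F than in G, at least 19.5-fold higher in F2i than in G and at least 19.7-fold lower in NB2i than in F2i.

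Cxcl5 (chr5:90759298-90761625) encodes another ligand of CXCR2. It had between 3 and 7 reads in each sample of G, F and F2i and 0 reads in both NB2i samples, too few for the test. Its FPKM was 0.13 and 0.12 in G, 0.21 and 0.17 in F, and 0.09 and 0.15 in F2i. Cxcl5 was thus also read on gelatin without feeders, where Cxcl1 was not, and its F and F2i samples were apart by less than 1 read. Some of its counts in G and F were not whole, which marks reads shared with other transcripts.

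Ccl2 and Ccl7 are neighbouring genes on chromosome 11 (chr11:82035577-82037452 and chr11:82045712-82047525). Both encode chemokines that draw monocytes through CCR2, and the product of Ccl7 binds further receptors. Ccl2 was at 2.21 and 2.67 FPKM in F and at 2.16 and 1.76 FPKM in F2i. Ccl7 was at 1.44 and 1.53 FPKM in F and at 1.56 and 1.21 FPKM in F2i. The F2i samples lay below the F samples for Ccl2 and on either side of them for Ccl7. Neither change passed the test, with a log2 fold change of -0.28 for Ccl2 (95% interval -0.86 to 0.30, edgeR adjusted p = 0.412) and of -0.06 for Ccl7 (95% interval -0.72 to 0.59, edgeR adjusted p = 0.887). Both genes were at 0 in all G and NB2i samples. Ccl2 was at least 26.0-fold higher in F than in G, at least 20.9-fold higher in F2i than in G and at least 21.0-fold lower in NB2i than in F2i. For Ccl7 these bounds were 18.0-fold, 16.8-fold and 16.95-fold. The next genes of this chemokine cluster, Ccl11, Ccl12 and Ccl8, had a mean of 0 FPKM in F and F2i.

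Cxcl12 lies on chromosome 6 (chr6:117168535-117181368) and encodes the ligand of CXCR4, also bound by the scavenging receptor ACKR3. Its FPKM was 2.02 and 2.32 in G, 4.71 and 4.20 in F, 1.56 and 1.87 in F2i, and 0.16 in both NB2i samples. These values came from 127 and 139, 265 and 247, 82 and 98, and 8 and 11 reads. Cxcl12 was therefore read in ESC cultures without feeders, which sets it apart from Il6, Cxcl1, Ccl2 and Ccl7. No conditions overlapped, and the order was F, G, F2i, NB2i. Each neighbour in this order differed in edgeR's test: F against G at a log2 fold change of 0.97 (adjusted p = 9.34e-07), F2i against G at -0.49 (adjusted p = 0.00433), and NB2i against F2i at -3.25 (adjusted p = 2.23e-10). The rise on feeders fell just short of 2-fold, so Cxcl12 was not called there. With 2i on feeders, Cxcl12 was lower than on gelatin without feeders.

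Ccl28 (chr13:119623819-119654359) encodes a chemokine of mucosal epithelia. It was highest in G, at 0.30 and 0.39 FPKM, and lower on feeders, at 0.11 and 0.17 FPKM in F and 0.11 FPKM in both F2i samples. NB2i had 0.18 and 0.16 FPKM. F against G gave a log2 fold change of -1.23 (edgeR adjusted p = 0.00886). That call was lost without the second G sample (edgeR adjusted p = 0.0808), without the first F sample (edgeR adjusted p = 0.087) and in DESeq2 (adjusted p = 0.113). F2i against F was -0.40 (95% interval -1.37 to 0.56, edgeR adjusted p = 0.484), an interval too wide to tell a 2-fold decrease from no change. F2i lay below G at -1.64 (edgeR adjusted p = 0.000789). In NB2i against G, Ccl28 was at -0.96 (edgeR adjusted p = 0.0168).

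The promoters of 4 of these genes are shown: Il6 and Cxcl1, read only with feeders, and Cxcl12 and Il1rl1, lower with 2i. What part the promoters had in these levels was not tested. Each is the 250 bases before a RefSeq start, on the forward strand of GRCm38.p6, and 7 of the 10 genes had an entry; Ccl2, Ccl7 and Cxcl5 had none. Capitals mark matches to 3 motifs on either strand: the NF-kB consensus, the AP-1 site TGANTCA and the C/EBP site TTNNGNAA. Among 32851 promoters of this length, 3.90% held the NF-kB consensus, 6.75% the AP-1 site and 36.8% the C/EBP site. The printed stretches are chr5:30012864-30013113 for Il6, chr5:90890995-90891244 for Cxcl1, chr6:117168285-117168534 for Cxcl12 and chr1:40439379-40439628 for Il1rl1.
Il6: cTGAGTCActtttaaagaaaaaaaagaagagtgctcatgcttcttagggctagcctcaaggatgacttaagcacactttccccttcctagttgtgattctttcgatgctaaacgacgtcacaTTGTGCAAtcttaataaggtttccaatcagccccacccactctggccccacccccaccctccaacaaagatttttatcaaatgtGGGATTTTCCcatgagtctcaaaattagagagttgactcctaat
Cxcl1: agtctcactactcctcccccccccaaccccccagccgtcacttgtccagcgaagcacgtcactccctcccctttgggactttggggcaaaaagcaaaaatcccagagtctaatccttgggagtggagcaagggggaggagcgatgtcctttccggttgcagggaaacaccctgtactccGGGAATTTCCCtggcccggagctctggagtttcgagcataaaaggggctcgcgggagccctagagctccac
Cxcl12: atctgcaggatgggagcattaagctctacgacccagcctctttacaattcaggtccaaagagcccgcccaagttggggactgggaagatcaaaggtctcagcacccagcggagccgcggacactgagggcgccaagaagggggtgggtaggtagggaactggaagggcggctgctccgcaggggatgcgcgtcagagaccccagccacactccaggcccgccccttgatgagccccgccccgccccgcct
Il1rl1: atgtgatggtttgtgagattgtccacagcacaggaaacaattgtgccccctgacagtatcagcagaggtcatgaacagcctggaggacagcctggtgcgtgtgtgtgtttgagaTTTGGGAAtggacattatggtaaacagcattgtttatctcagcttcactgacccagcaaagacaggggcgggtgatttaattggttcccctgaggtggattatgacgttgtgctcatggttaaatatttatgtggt

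The Il6 promoter held 1 match to each motif, the NF-kB match at positions -44 to -35 from the start, the C/EBP match at -128 to -121 and the AP-1 match at -249 to -243. The Cxcl1 promoter held the NF-kB consensus in 2 overlapping readings of the same bases, from position -71 to -61. The Cxcl12 stretch held no match to any of the 3 motifs, and the Il1rl1 stretch held 1 match to the C/EBP site. Another Il1rl1 start, with the stretch chr1:40429320-40429569, is not printed and also held 1 match to the C/EBP site. Over the 9 starts of the 7 genes with an entry, 3 held the NF-kB consensus, 1 the AP-1 site and 6 the C/EBP site. A match describes these letters only.

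Among the receptors, Il1rl1 (chr1:40404864-40465418) encodes ST2, the chain that binds IL-33. Its FPKM was 0.21 and 0.26 in G, 1.60 and 1.52 in F, 0.77 and 0.74 in F2i, and 0.18 and 0.35 in NB2i. F, F2i and the conditions without feeders did not overlap. F lay above G at a log2 fold change of 2.31 and F2i above G at 1.50 (edgeR adjusted p = 3.16e-08 and 1.65e-05). NB2i lay below F2i at -1.23 (edgeR adjusted p = 0.000133). G and NB2i did not differ beyond their spread, at 0.27 (edgeR adjusted p = 0.424).

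The transcript length that the files give for Il1rl1, a mean over its transcripts weighted by their estimated amounts, also differed between conditions. It was 5308 bases in all G and NB2i samples, 3879 and 3914 bases in F, and 4470 and 4418 bases in F2i. The tests of Il1rl1 used counts, which do not allow for this length. Their fold changes between F and F2i, and between F and G, are therefore smaller than those of FPKM. The GENCODE annotation of mm10 has a long Il1rl1 transcript of 5302 bases, which encodes the membrane receptor, and a short one of 2661 bases, which ends in an earlier exon and encodes the soluble form that captures IL-33. If only these were in use, the short transcript made up 54.0% and 52.7% of Il1rl1 transcripts in F, 31.7% and 33.6% in F2i, and 0 in G and NB2i. Split in this way, the short transcript was at 0.864 and 0.801 FPKM in F and 0.244 and 0.249 FPKM in F2i. The long transcript was at 0.736 and 0.719 FPKM in F and 0.526 and 0.491 FPKM in F2i. The F and F2i samples were apart for both transcripts, and the short one had the larger difference in FPKM. This split is a description with no test, since RSEM estimated it from 50-base reads and a further annotated transcript of 1216 bases was left out. The short transcript starts at chr1:40439776, so the bases right before it are not in the printed promoter stretch.

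**Figure D2:**
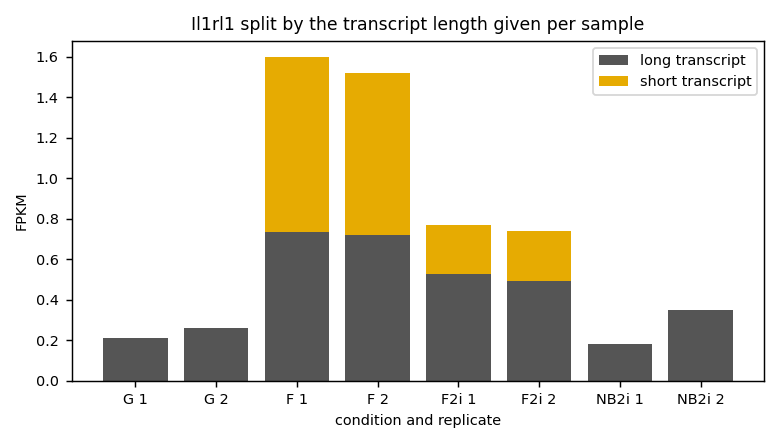
FPKM of Il1rl1 (vertical axis) in each of the 8 samples (horizontal axis, condition and replicate), split by the mean transcript length in the files into a long (grey) and a short transcript (yellow). The short transcript reached 0.864 and 0.801 FPKM in the F samples and 0.244 and 0.249 FPKM in the F2i samples, and the length left none for it in G and NB2i.

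Il1r1 (chr1:40222480-40316201), whose product is the signalling receptor for IL-1, lies before Il1rl1 in the same cluster of receptor genes. Il1r1 was at 0.08 and 0.13 FPKM in G, 0.75 and 0.72 in F, 0.86 and 0.84 in F2i, and 0.39 and 0.31 in NB2i. The F2i samples lay above the F samples by less than the test could separate, at a log2 fold change of 0.24 (95% interval -0.14 to 0.61, edgeR adjusted p = 0.279). It was higher in F than in G at 2.80 and in F2i than in G at 3.03 (edgeR adjusted p = 3.84e-08 and 1.48e-09), and lower in NB2i than in F2i at -1.27 (edgeR adjusted p = 1.51e-05). It was also higher in NB2i than in G at 1.76 (edgeR adjusted p = 3.9e-05), in cultures where fibroblast markers were lowest. Between these genes lies Il1rl2, a receptor of the same family, with a mean of 0.31 FPKM in F and 0.39 FPKM in F2i.

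Il4ra (chr7:125552271-125579474) was at 0.50 and 0.46 FPKM in G, 2.27 and 2.30 in F, 2.29 and 2.42 in F2i, and 0.39 and 0.24 in NB2i. F and F2i overlapped, and with 483 and 494 reads in all the log2 fold change of 0.08 had the narrowest interval of the 9 genes, -0.14 to 0.31 (edgeR adjusted p = 0.551). F lay above G at 2.27 and F2i above G at 2.35 (edgeR adjusted p = 4.64e-11 and 4.39e-12). NB2i lay below F2i at -2.88 and below G at -0.53, the latter under 2-fold (edgeR adjusted p = 8.75e-13 and 0.0351).

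Of the 9 tested genes, Il6, Cxcl1, Ccl2 and Ccl7 passed the filter on low counts through F and F2i alone, so that a call for them between cultures with and without feeders was fixed by the filter, and no count over the 9 is read against all genes there. In F against G, the other 5 tested genes gave 3 calls higher (Il1r1, Il1rl1 and Il4ra) and 1 lower (Ccl28), where 5.59% and 1.65% of all tested genes were called. In F2i against G the same 3 were called higher and Ccl28 lower, where 11.7% and 9.82% of all genes were. NB2i and F2i differ by base medium, serum and the coating of the dish as well as by feeders, and possibly by the dose of 2i. Parting ESCs from feeders is a further step, which cultures without feeders do not need. In every comparison of cultures with and without feeders, F against G included, that step and the feeders cannot be told apart. In NB2i against F2i, 4 of the 5 were called lower and 0 higher, where 13.3% and 6.01% of all genes were, and Ccl28 was the gene that did not pass, at 0.67 (edgeR adjusted p = 0.194). Of the 4, Il1rl1 was under 2-fold without the first NB2i sample, at -0.83. In NB2i against G, Il1r1 was called higher and Cxcl12 lower (log2 fold change -3.73), against 11.1% and 16.1% of all genes. These comparisons share samples and are not independent of each other.

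Most fibroblast markers were higher in F2i than in F. Of the 16 markers, 10 were past the adjusted p in that direction and 1 in the other, with a median log2 fold change of 0.63. Called were 5 higher and 1 lower, where 6.44% and 7.0% of all tested genes were. The 5 were Col1a1 (1.88), Postn (1.61), Col3a1 (1.49), Col1a2 (1.47) and Col5a1 (1.45), collagen chains and a matrix protein. Pdgfra, a receptor for platelet-derived growth factor, was called lower at -1.05. Thy1, Pdgfrb, Prrx1, Fbln2 and Loxl1 rose by less than 2-fold, from 0.43 to 0.84 on the log2 scale, and Dcn, Lum, Fap, Twist2 and Mmp2 did not pass the test. The 5 markers called higher gave 75.9% and 75.8% of the summed marker reads in F and 87.0% and 86.5% in F2i, and the summed reads of the other 11 markers were 5670 and 6090 in F and 8554 and 8839 in F2i. The plot of log2 fold changes sets the 9 tested genes beside these markers.

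**Figure D3:**
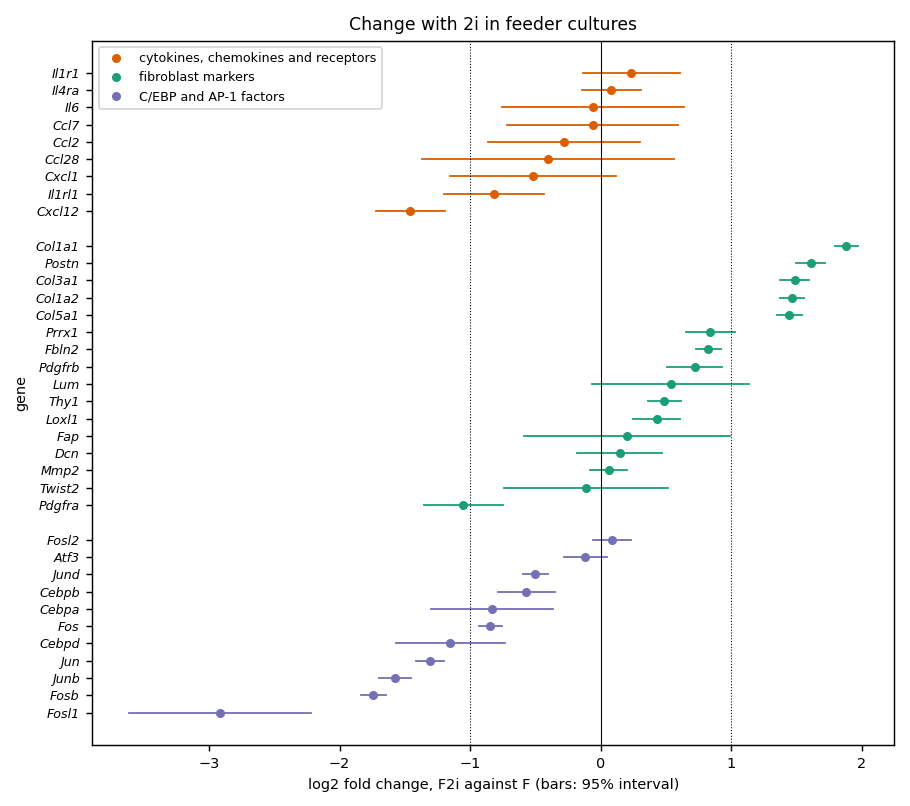
Log2 fold change of F2i against F (horizontal axis) with its 95% interval (bars) for the 9 tested cytokine, chemokine and receptor genes (orange), 16 fibroblast markers (green) and 11 C/EBP and AP-1 factors (purple), 1 gene a row. Dotted lines mark 2-fold changes. Cxcl12 is at -1.46 and Il1rl1 at -0.82, Col1a1 is at 1.88, and Fosl1 is at -2.92.

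Set against the summed reads of the 16 markers, the 10 genes were all lower in both F2i samples than in both F samples. Cxcl12 had 11.3 and 9.82 reads per 1000 marker reads in F and 1.24 and 1.50 in F2i. Il4ra, level by depth, had 10.1 and 9.74 in F and 3.63 and 3.90 in F2i. Ccl2 had 1.49 and 1.71 in F and 0.516 and 0.428 in F2i. On this scale the log2 fold change of the 8 genes tested ran from -1.24 for Il1r1 to -2.94 for Cxcl12, and all 8 were called lower, but so were 84.0% of all genes tested on it. The scale shifts all genes alike by the rise of the markers, so these calls say nothing particular of the 8 genes. Against the other 11 markers, a choice made after seeing the data, the differences were smaller. Il4ra then had 42.0 and 40.2 reads per 1000 in F and 27.9 and 28.9 in F2i, and Cxcl12 had 46.7 and 40.6 in F and 9.59 and 11.1 in F2i. Which markers stand for the amount of feeder RNA was not tested.

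**Figure D4:**
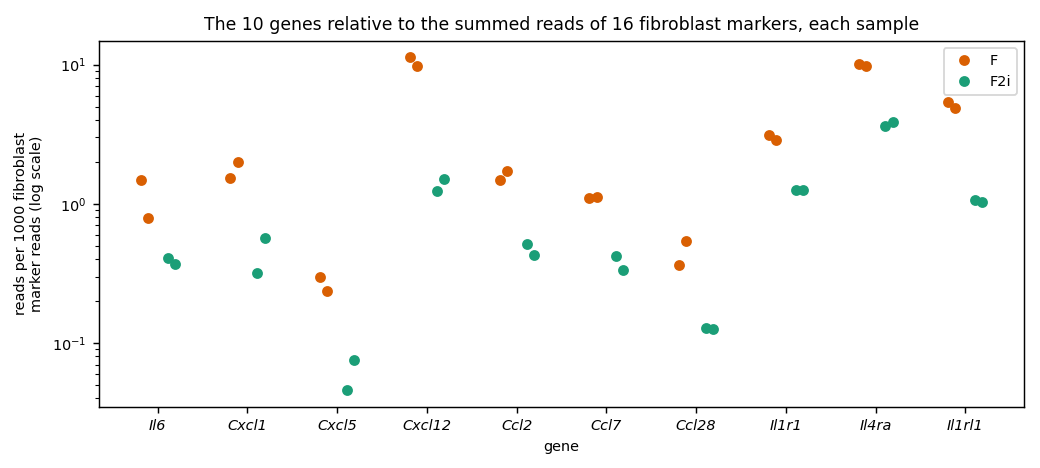
Reads of each of the 10 genes (horizontal axis) per 1000 summed reads of 16 fibroblast markers (vertical axis, log scale) in the 2 F samples (orange) and the 2 F2i samples (green). For each gene both F2i points lie below both F points, with Cxcl12 at 11.3 and 9.82 in F and 1.24 and 1.50 in F2i.

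Leukocyte markers also differed between the feeder cultures. Of 10 markers, 6 could be tested. In F2i against F, 3 were called lower and 0 higher, where 7.0% and 6.44% of all tested genes were. Adgre1, among these 3, passed the filter on low counts through F alone, with 44 reads there and 6 in F2i. Its direction was thus fixed by the filter. Lyz2, the lysozyme of macrophages and neutrophils, was at 8.63 and 8.44 FPKM in F and 0.61 and 1.00 in F2i, and Adgre1, which encodes the macrophage antigen F4/80, had means of 0.33 and 0.045 FPKM. Ptprc, the pan-leukocyte gene, was at 0.08 FPKM in both F samples and 0.02 in both F2i samples. The summed FPKM of the list was 20.8 and 20.0 in F, 11.7 and 12.9 in F2i, 7.22 and 6.34 in G, and 18.5 and 19.2 in NB2i, where Cd68 alone was at 17.8 and 19.1. Most of the fall in the sum from F to F2i was that of Lyz2. Cd68 did not fall, at 9.21 and 8.88 FPKM in F and 9.93 and 10.75 in F2i. What part leukocyte RNA had in the levels of the 10 genes was not tested.

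Of 20 partner ligands and receptors of the 10 genes, 10 could be tested. In F2i against F, 2 were called higher and 1 lower, where 6.44% and 7.0% of all tested genes were. The 2 that rose were Ackr3 and Il6ra, and the one that fell was Il33. Ackr3, whose product takes up and degrades CXCL12, rose from 5.54 and 5.23 FPKM in F to 13.7 and 12.9 in F2i, at a log2 fold change of 1.33 (SE 0.0861, edgeR adjusted p = 1.83e-11). It was at 11.8 and 10.5 FPKM in NB2i and at 2.27 and 1.96 in G. Cxcr4, the signalling receptor, was at 1.30 and 1.29 FPKM in F and 1.61 and 1.57 in F2i, a difference that did not pass the test (0.33, 95% interval -0.08 to 0.75, edgeR adjusted p = 0.165).

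For IL-6, the ligand-binding receptor gene Il6ra rose from 0.36 FPKM in both F samples to 1.35 and 1.40 in F2i, at a log2 fold change of 1.96 (edgeR adjusted p = 2.47e-08), and was at 3.49 and 3.17 FPKM in NB2i. Il6st, which encodes the shared signal transducer gp130, was at 20.2 and 19.7 FPKM in F and 15.3 and 14.8 in F2i (-0.37, edgeR adjusted p = 2.85e-06), a fall of less than 2-fold. Cxcr2, the receptor for the products of Cxcl1 and Cxcl5, was read in all conditions, at 7.96 and 6.92 FPKM in F and 8.06 and 6.37 in F2i, and gave no detected change between them (-0.01, 95% interval -0.23 to 0.22, edgeR adjusted p = 0.968). In G, where Cxcl1 had no reads, Cxcr2 was at 11.6 and 9.91 FPKM. Ccr2, the receptor for the products of Ccl2 and Ccl7, was at or below 0.07 FPKM in all samples.

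Il33, which encodes the ligand of the Il1rl1 product, was at a lower level with 2i. It was read at 0.62 and 0.69 FPKM in F and 0.37 and 0.14 in F2i (-1.33, SE 0.361, edgeR adjusted p = 0.00365), and at 0.82 and 0.94 FPKM in G. The co-receptor gene Il1rap was at 0.58 and 0.59 FPKM in F and 0.70 and 0.63 in F2i and gave no detected change (0.29, 95% interval -0.16 to 0.74). Il1b, an IL-1 gene, was at 0.11 FPKM in both F samples and at 0 in all others. Il13ra1, the partner of the Il4ra product for IL-13, was at 1.43 and 1.63 FPKM in F and 1.98 and 1.64 in F2i (0.28, edgeR adjusted p = 0.0855). Il2rg, the partner for IL-4, was at 1.64 and 1.09 FPKM in F and 1.54 and 1.33 in F2i (0.11, edgeR adjusted p = 0.692), and at 7.04 and 7.65 FPKM in NB2i. Il4 and Il13 themselves were below 0.10 FPKM in every sample.

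**Figure D5:**
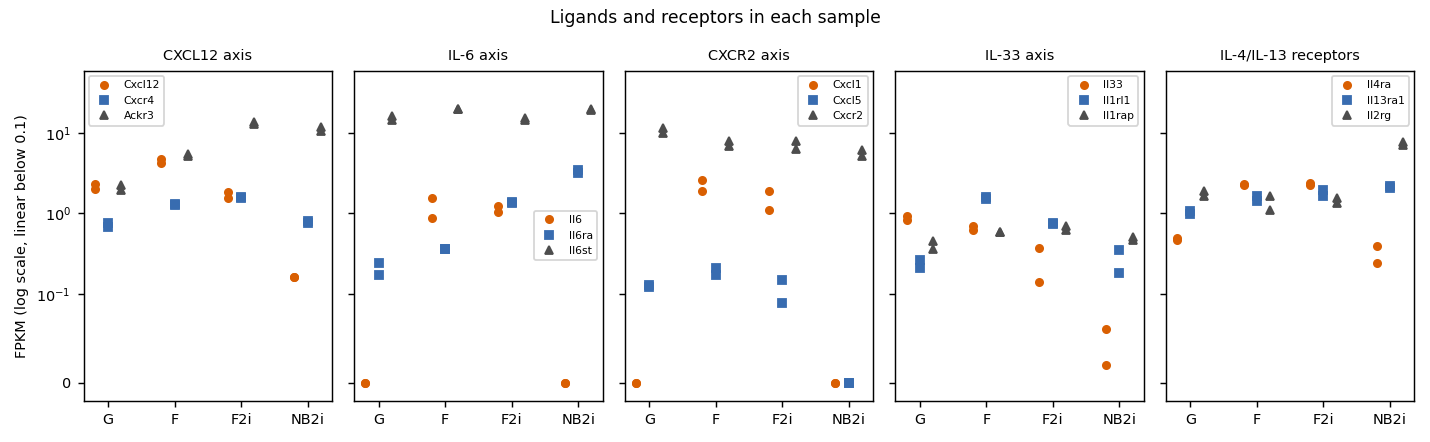
FPKM (vertical axis, log scale, linear below 0.10) of ligands and receptors in the 2 samples of each condition (horizontal axis), in 5 panels by signalling axis, 1 symbol a gene. Ackr3 is at 13.7 and 12.9 in F2i where Cxcl12 is at 1.56 and 1.87, and Il6 is at 0 in G and NB2i where Il6st is between 14.5 and 19.8.

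Transcription factors known to act on promoters of inflammatory genes were measured in 2 lists, of which the NF-kB list also holds inhibitors and target genes. Of all tested genes, 5.59% were called higher in F against G, and 6.44% higher and 7.0% lower in F2i against F. Of 11 C/EBP and AP-1 factors, 8 were called higher in F against G, with Fosb at 7.13 and Fos at 5.78 on the log2 scale. In F2i against F, 5 were called lower and 0 higher. The 5 were Fosl1 (-2.92), Fosb (-1.74), Junb (-1.57), Jun (-1.30) and Cebpd (-1.15). Fos was at 147 and 144 FPKM in F and still at 77.2 and 81.0 in F2i, against 2.48 and 2.90 in G. Of 22 tested genes of NF-kB subunits, inhibitors and targets, 2 were called higher and 2 lower in F2i against F. Saa3, an acute-phase protein (2.05), and Ptges, a prostaglandin E synthase (1.63), rose, while Nfkb1, which encodes the p50 subunit, fell (-1.01). Traf1, an adaptor of TNF receptors, fell too (-1.01).

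Most other chemokine and interleukin genes were too low to test. Of all tested genes, 6.44% were called higher and 7.0% lower in F2i against F. Of 24 other chemokine genes in the files, 7 were tested, and in F2i against F Ccl25, a thymic chemokine, rose (2.34, to a mean of 12.0 FPKM) and Cxcl16, a membrane-bound chemokine, fell (-1.10). Of 21 chemokine receptor genes, 7 were tested, 1 rose (Ackr3) and 1 fell (Ackr4, a scavenger, -2.11). Of 24 other interleukin genes, 7 were tested, 1 was called higher (Il34, a ligand of the CSF1 receptor, 3.21) and 3 lower, among them Il17d (-1.69). Of 34 other interleukin receptor genes, 21 were tested, 2 were called higher (Il6ra and Il10rb, the latter at 1.24) and 2 lower.

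The genes most like each of these in pattern were sought by Pearson's r of log2(FPKM + 1) over the 8 samples among 13026 genes, for the 7 that reached 1 FPKM, as a description with 2 samples a condition behind it. Ccl2 was closest to Ccl7 (r = 0.997) and Ptgs2 (r = 0.997), the prostaglandin synthase gene. Ccl7 was closest to Vcam1, an adhesion molecule (r = 0.997), which was at 1.96 and 1.72 FPKM in F, 1.99 and 1.65 in F2i and 0 in G and NB2i. Il4ra was closest to Slit3, Cav1 and S100a4 (r from 0.995 to 0.998). Il1rl1 was closest to Nop58 and then to Pdgfra (r = 0.981), the fibroblast marker that was also lower in F2i than in F. The closest genes of Cxcl12 were Ralgds, Syf2 and Dock6, those of Il6 were Snhg17, Rrs1 and Vcam1, and Loxl3 and Prpf18 were among those of Cxcl1. The 8 points share 4 conditions.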

How the data were processed

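The authors read the poly-A RNA of 8 samples from one end over 50 bases (BGISEQ-500), aligned it to mm10 using Bowtie2 and let RSEM assign it to genes. The authors deposited 1 gene list per sample with an expected count, which is RSEM's estimate of a gene's reads and is not normalized, an FPKM, and a mean transcript length. A gene absent from a sample's list was taken as 0. Single-end reads that fit several genes or transcripts were divided by estimation, and 29.8% of the expected counts above 0 were more than 0.001 from a whole number. A gene with few reads or with near-identical relatives is therefore less certain.

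For testing, each expected count was rounded to a whole number and edgeR 4.0.16 (R 4.3.3; quasi-likelihood, TMM factors from 0.977 to 1.03) was run, with all 8 samples in 1 fit, no block, and genes kept at 10 or more counts in at least 2 samples. Benjamini-Hochberg adjustment covered the 15287 genes tested. The adjusted p-values rest on the model, since an exact permutation of 2 samples against 2 cannot go below 0.3333. Tried beside this were a fit in DESeq2 1.42.0, its size factors in edgeR, no filter, only the groups compared, the replicate block, leaving out each replicate, no limit on the fold, and scaling by fibroblast marker counts. FPKM were also fitted with limma 3.58.1, after adding 1 or 0.1 and taking log2, for genes of at least 0.5 FPKM. The scripts were tested on simulated data first.

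All 10 genes are named, partner genes where a condition averaged at least 0.5 FPKM, and up to 4 called genes of other lists with the largest changes and at least 1 FPKM. Fibroblast and endothelial markers called in F2i against F, Cdh5, Cebpd, Il1b, Ccr2, Il4, Il13, Traf1, Adgre1, Ptprc, Cd68, Spry2, Etv5 and genes beside the 10 in the genome are named after their values were seen. The 10 genes and the lists were chosen with earlier results of these data known. Coordinates and promoters are from RefSeq (GRCm38.p6, the build mm10) and transcripts from GENCODE, counted from 1. The study calls the replicates biological duplicates without saying how far apart the cultures were kept. The p-values thus measure the spread between these samples, and edgeR's common coefficient of variation beyond counting error was 3.25%. Chi-square per degree of freedom between replicates ran from 1.84 to 3.55. Reads divided by estimation can raise it, so it cannot tell separate cultures from repeats of 1 library. Floors cover counting error only.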

Additional observations from a re-analysis of the deposited data

How the results depend on the processing

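Cxcl12 was called lower in F2i against F under every alternative with a test, from -1.58 to -1.34 on the log2 scale with a replicate left out. The number of genes called there among the 10 changed under 2 alternatives: 2 genes were lower with no limit on the fold, where 54.8% of all genes passed in either direction, and 8 per fibroblast marker count, where 84.0% of all genes were lower. On the latter scale Il1r1 was at -1.24 and Il4ra at -1.40 on the log2 scale, and per count of the 11 markers not called higher, an alternative added after seeing the data and not tested, at -0.38 and -0.53. Leaving out a replicate turned the sign of changes that had not passed, Il6 ranging from -0.41 to 0.41 and Ccl7 from -0.25 to 0.11 in F2i against F, and Il1rl1 from -0.28 to 0.68 in NB2i against G. Genes called lower in F against G (Ccl28) numbered 0 with DESeq2. With a replicate left out, the log2 fold change of Ccl28 there ran from -1.515 to -1.002. The limma fits left Ccl28 out, since it was below 0.5 FPKM in every sample, so they could not test its calls. In F2i against G, genes called lower numbered 2 with no limit on the fold. In NB2i against G, limma on log2(FPKM + 1) called 0 higher, and the genes called lower numbered 2 with no filter, 3 with no limit on the fold and from 1 to 2 with a replicate left out, where Ccl28 passed without the first G or the first NB2i sample. Cxcl12 in F against G reached 2-fold without the second G or the second F sample, at 1.04 and 1.02.

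Over all genes, limma on log2(FPKM + 1) called fewer, a scale that understates changes of low genes: 355 higher and 376 lower in F2i against F (985 and 1070 in edgeR), 280 and 29 in F against G (855 and 252), 785 and 667 in F2i against G (1786 and 1501), 391 and 703 in NB2i against F2i (918 and 2038), and 880 and 1103 in NB2i against G (1696 and 2456). In F against G, 141 were lower with DESeq2 and 148 with limma on log2(FPKM + 0.1). The share of higher calls in F against G was 77.2% in edgeR and 90.6% with limma on log2(FPKM + 1). With no limit on the fold, 4179 and 4192, 3322 and 2831, 5281 and 5083, 5094 and 4704, and 5648 and 5419 genes were called in the same order of comparisons.

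Groups carry the same replicate numbers, but deviations from the group means did not go together (mean r -0.0385, from -0.168 to 0.0801 over 6 pairs of groups), so the numbers were not taken as pairs. With the replicate block, 981 genes were higher and 1063 lower in F2i against F, Cxcl12 was at -1.46, and no call among the 10 genes changed in any comparison. Depth limits Il6, Cxcl1, Ccl2, Ccl7, Ccl28 and Cxcl5 most, at 50 reads or fewer per sample.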

Other observations

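Cytokine genes outside the families above also differed between F and F2i. In the LIF and oncostatin family, 1 of 10 tested genes was called higher and 2 lower, where 6.44% and 7.0% of all tested genes were. Osm, which encodes oncostatin M, a cytokine of the IL-6 family, rose from a mean of 0.645 FPKM in F to 4.53 in F2i, at a log2 fold change of 2.85 (edgeR adjusted p = 1.07e-12). Cntfr, the receptor for ciliary neurotrophic factor, fell by 1.47 on the log2 scale. Osmr, the oncostatin M receptor gene, was at a mean of 1.64 FPKM in F and 0.065 in G, a log2 fold change of 4.65.

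In the colony-stimulating factor and TNF family, 2 of 14 tested genes were called higher and 1 lower in F2i against F. Of all tested genes, 6.44% were called higher and 7.0% lower there. Tnfsf11, which encodes RANKL, a factor for osteoclasts, fell by 2.78 on the log2 scale, and Tnfrsf19, a receptor of the TNF family, rose by 1.69. Csf1, the macrophage growth factor gene, was higher in F than in G at a log2 fold change of 1.94, with means of 8.07 and 2.24 FPKM. Of 8 endothelial markers 7 were tested, and 3 were called higher and 3 lower in F2i against F. Vwf (2.08), Tek (1.46) and Tie1 (1.38) rose, and Esam (-2.95), Kdr (-2.05) and Cldn5 (-1.24) fell. Tie1 was at a mean of 0.465 FPKM in F and 1.17 in F2i, against 0.115 in G and 0.08 in NB2i. Cdh5, a defining marker, was highest in G, at 0.27 and 0.28 FPKM, and at or below 0.06 FPKM in all feeder samples. What part endothelial RNA had in the feeder cultures was not tested.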
